A study of Mus musculus with 8 samples.

Results

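Expression of 9 genes of oligodendrocytes and myelin, Mbp, Mog, Mag, Mobp, Cnp, Cldn11, Olig1, Olig2 and Sox10, was measured in nuclear RNA of sorted cortical GABAergic neurons, the inhibitory neurons of the cortex. The genes were chosen by symbol, all 9 were found among the 55341 gene symbols of the deposited count tables, and all 9 passed the filter on low counts. Nuclei carried a fluorescent reporter that Cre recombination restricted to GABAergic neurons, and were collected from the frozen cortex of single juvenile mice with a cell sorter; which promoter drove Cre is not given in the sources used here. All mice were hypothyroid, because their mothers were treated during gestation with propylthiouracil (PTU), a blocker of thyroid hormone synthesis. The PTU group (mice 9 to 12, n = 4) had no further treatment named, and the mice of the PTU+TH group (numbered 13 to 16, n = 4) received an intraperitoneal injection of thyroid hormone (TH), 24 h ahead of brain collection. No group with normal thyroid function is part of the comparison.

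Oligodendrocytes wrap axons in myelin, a stack of compacted membrane that speeds conduction. Their precursors divide, leave the cell cycle and then switch on the myelin genes under transcription factors of the OLIG and SOX families. TH is a known timer of that switch, and myelination is late in hypothyroid rodents. The listed genes are thus marks of a cell type that the sort was meant to leave out, in animals treated with a hormone that acts on that cell type. RNA of these genes in a bulk sample can come from few cells with much RNA or from more cells with little, and these cannot be told apart; a source in the sorted neurons themselves was not tested either.

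For 6 of the 9 members a promoter is held in the RefSeq table of build GRCm38.p6. The 250 bases before the RefSeq start site are shown for 3 of them, for Mobp and Cldn11 because the ratio of their highest to their lowest library was the largest of the 9 (for Cldn11 over a library with 2 counts), and for Mog because its ratio was the smallest. The RefSeq start of Mobp lies downstream of the start in the GENCODE annotation used for gene positions below, so the last bases of its window fall inside the gene as positioned there; for Cldn11 and Mog the starts coincide. Capitals mark the 6-base motif ACAANG on either strand (CNTTGT when read from the other). It is a loose form of the core that SOX factors bind, since any base is allowed at N. In addition AGGTCA, the half-site of nuclear receptors such as the TH receptor, and CAGCTG, an E-box of the kind that basic helix-loop-helix factors such as OLIG2 bind, were searched on both strands; they share no bases with the marked matches, since neither was found in these 3 windows.
Mobp (chr9:120149492-120149741, + strand): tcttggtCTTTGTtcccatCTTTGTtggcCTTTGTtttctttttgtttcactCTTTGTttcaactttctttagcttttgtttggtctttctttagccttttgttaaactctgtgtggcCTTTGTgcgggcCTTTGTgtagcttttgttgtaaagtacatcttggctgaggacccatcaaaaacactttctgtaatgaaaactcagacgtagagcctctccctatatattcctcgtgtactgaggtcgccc
Cldn11 (chr3:31149670-31149919, + strand): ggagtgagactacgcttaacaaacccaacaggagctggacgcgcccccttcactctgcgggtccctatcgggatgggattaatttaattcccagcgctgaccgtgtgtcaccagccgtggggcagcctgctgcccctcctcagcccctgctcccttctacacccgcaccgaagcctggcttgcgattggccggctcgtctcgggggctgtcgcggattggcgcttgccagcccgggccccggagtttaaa
Mog (chr17:37023399-37023648, - strand): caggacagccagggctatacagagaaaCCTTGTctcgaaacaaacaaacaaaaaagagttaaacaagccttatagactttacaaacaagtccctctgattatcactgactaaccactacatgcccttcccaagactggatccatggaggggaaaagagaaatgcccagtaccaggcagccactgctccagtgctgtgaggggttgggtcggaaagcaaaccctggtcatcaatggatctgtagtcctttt
The Mobp window held 6 matches to ACAANG, all read as CTTTGT on the printed strand, the Mog window held 1 and the Cldn11 window held 0. Among 32851 promoter windows of the same length in the table, 36.3% held ACAANG at least once, 14.0% held AGGTCA and 13.0% held CAGCTG. These are matches of letters, and no binding was measured.

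Library totals ran from 21762810 to 29084071 counts, and the 9 genes together took between 0.00845% and 0.0173% of them. Levels are given as CPM, counts scaled to library size after TMM normalisation (the trimmed mean of M values, which sets a common scale from genes that change little). The GABAergic genes Gad1 and Gad2, which encode the enzymes that make GABA, averaged 446 ± 45.2 and 442 ± 28.7 CPM (SD, n = 8). Markers of other cells were also present: the excitatory neuron gene Slc17a7 at 15.8 to 57.9 CPM, the astrocyte gene Slc1a2 at 87.3 to 262 CPM, the endothelial gene Cldn5 at 7.17 to 69.1 CPM and the microglial gene Csf1r at 5.49 to 15.0 CPM. Slc17a7 was lowest in PTU mice 12 and 11 and highest in PTU+TH mouse 15. The TH-responsive genes Hr and Klf9 were higher in PTU+TH (log2 fold changes 3.88 and 1.37; edgeR adjusted p = 6.59e-07 and 0.00223), in all 4 mice of the group. The 4 Y-linked genes listed for a check had 0 counts in mice 15 and 16 of PTU+TH and counts in the other 6 libraries. All PTU libraries thus held Y-linked counts, while PTU+TH held libraries of both kinds. Sex, as read from these genes, was therefore not balanced between the groups. The main test used group alone and did not adjust for it.

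None of the 9 genes passed the test for a difference between PTU+TH and PTU. Over the whole table, 368 of 17355 tested genes (2.12%) passed (edgeR quasi-likelihood test, Benjamini-Hochberg adjusted p under 0.05), with 1.49% called higher after TH and 0.634% called lower. Of the 9 members 0 were called, 1 (Mobp) had an unadjusted p under 0.05 against 12.8% of all genes tested, and 0 members had groups that did not overlap against 8.71% of all genes. DESeq2 and limma voom also called 0 of the 9. The fitted change was above 0 for 8 members and below 0 for 1, against 8434 above and 8921 below over all genes tested. The median log2 fold change was 0.40 against -0.01. This lean was shared by markers of other cells. The fitted change was above 0 for 7 of 7 microglial markers tested (median 0.50), 6 of 8 astrocyte markers (0.18) and 7 of 8 excitatory markers (0.07). For endothelial (-0.08) and GABAergic markers (-0.07) it was above 0 in 2 of 7 each. All these genes were read in the same 8 libraries, so they are not independent observations. The spread between mice was wide: the median coefficient of variation over the 8 libraries was 51.7%, against 17.7% over all genes tested. It was similarly wide for microglial (51.3%), excitatory (42.1%) and astrocyte markers (40.1%), wider for endothelial (70.1%) and lower for GABAergic markers (10.1%).

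**Figure D1:**
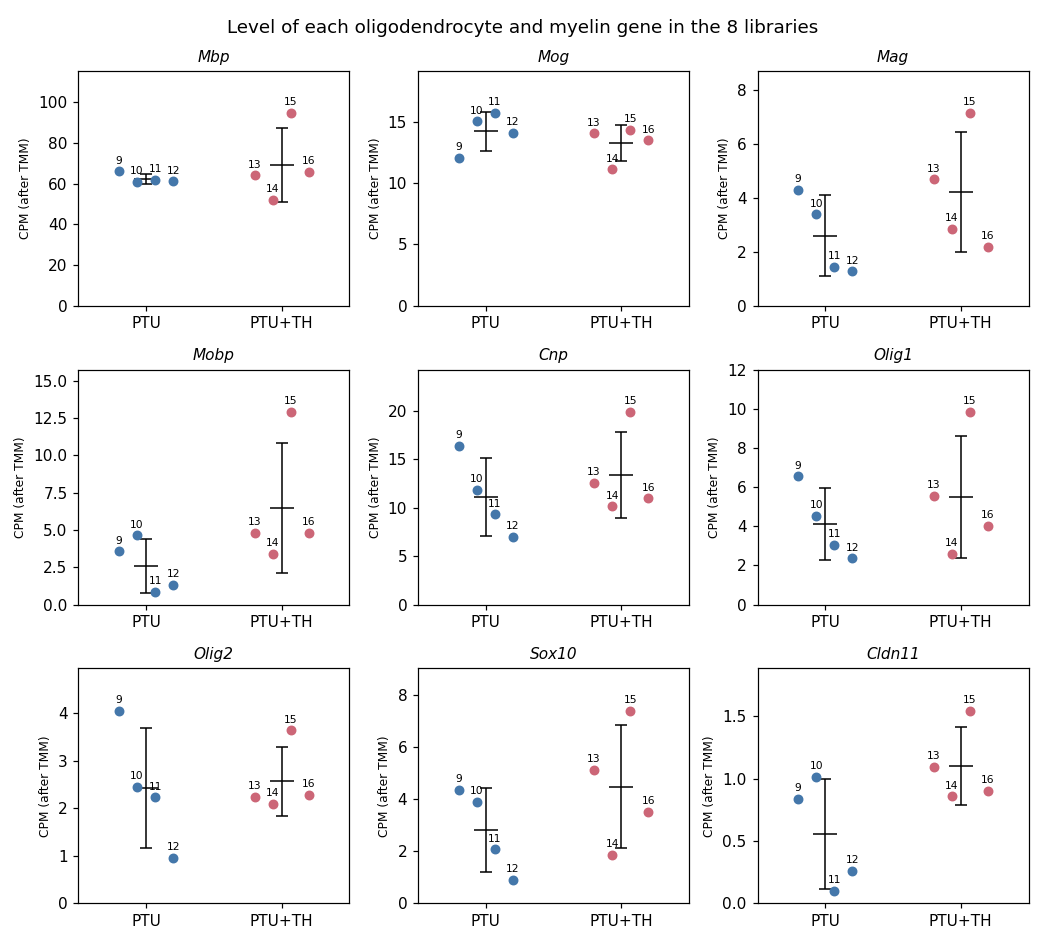
Level of each of the 9 genes in CPM (vertical axes, linear from 0) in the 4 PTU and 4 PTU+TH libraries; points are single mice with their numbers, and the horizontal line with bars is the mean ± SD. The groups overlap for every gene, mouse 15 is the highest library for 7 of the 9, and Mbp and Mog vary least.

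Among the proteins of compact myelin, Mbp encodes myelin basic protein, which holds the inner faces of the membrane together. The gene (chromosome 18, 82475146 to 82585637, + strand, build GRCm38) also has an upstream start whose golli transcripts are known from neurons and other cells. Mbp was the most abundant member and read 66.1, 61.0, 61.7 and 61.0 CPM in PTU mice 9 to 12 and 64.0, 52.0, 94.6 and 65.7 CPM in the TH-injected mice 13 to 16. The PTU libraries lay close together, and the PTU+TH libraries lay both below and above them, with mouse 14 lowest and mouse 15 highest. The means were 62.5 ± 2.44 and 69.1 ± 18.1 CPM (SD over 4 mice a group; log2 fold change 0.14 with an SE of 0.15; edgeR adjusted p = 0.788). Without PTU+TH mouse 15 the log2 fold change was -0.04, so its sign rested on that library, and without mouse 14 it was 0.26.

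Mobp (chromosome 9, 120149707 to 120181484, + strand), whose 6 CTTTGT matches are printed above, encodes a small basic protein of compact myelin. It read 3.57, 4.63, 0.84 and 1.31 CPM in the PTU mice and 4.81, 3.40, 12.9 and 4.81 CPM in the TH-injected mice, from 17 to 284 counts per library. PTU mice 11 and 12 were low, PTU+TH mouse 15 was far above the rest, and the other 5 libraries shared a range. The log2 fold change of 1.30 (SE 0.56, 95% interval 0.05 to 2.55) was the largest of the 9 and did not pass (edgeR adjusted p = 0.364). It was 0.72 without mouse 15, 1.02 without mouse 11, 1.73 without mouse 10 and 0.65 when the 2 libraries lacking Y-linked counts were dropped.

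Mog and Mag encode immunoglobulin-like proteins of the outer myelin surface and of the membrane that faces the axon. Mog (chromosome 17, 37010743 to 37023398, - strand) read 12.1, 15.0, 15.7 and 14.1 CPM in the PTU mice and 14.0, 11.1, 14.3 and 13.5 CPM in the TH-injected mice. No library stood apart, and its coefficient of variation of 10.9% was the smallest of the 9 and below the median of all genes tested. It was the only member with a fitted change below 0 (log2 fold change -0.10 with an SE of 0.14; edgeR adjusted p = 0.857), and the 95% interval of -0.40 to 0.19 bounds the difference more closely than for the other members. The log2 fold change of Mog was -0.17 without mouse 9 of PTU and -0.02 without mouse 14 of PTU+TH. Mag (chromosome 7, 30899176 to 30914873, - strand) read 4.30, 3.39, 1.43 and 1.27 CPM in the PTU mice and 4.68, 2.85, 7.13 and 2.19 CPM in the TH-injected mice. Here mice 11 and 12 were the lowest and mouse 15 the highest, in contrast to the even level of Mog. The log2 fold change of Mag was 0.68 (SE 0.44, edgeR adjusted p = 0.606), 0.31 without mouse 15 and 1.04 without mouse 9 of PTU.

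Cnp encodes an enzyme of the cytoplasmic channels of non-compact myelin. Cnp (chromosome 11, 100574904 to 100591729, + strand) shares much of its body with Dnajc7 on the other strand (47.0% of the body is free). The counts are taken to describe that free part alone, an inference from the check of overlapping genes given with the levels per length. Cnp read 16.4, 11.8, 9.30 and 6.95 CPM in the PTU mice and 12.6, 10.1, 19.9 and 10.9 CPM in the TH-injected mice (log2 fold change 0.26 with an SE of 0.27; edgeR adjusted p = 0.792). The 2 groups covered much the same range, again with mouse 12 lowest and mouse 15 highest. Without mouse 15 the log2 fold change was 0.01, and without mouse 9 it was 0.52.

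Cldn11 (chromosome 3, 31149920 to 31164324, + strand), the claudin of the tight junctions between myelin layers, was the least abundant member. Its counts were 23, 27, 2 and 6 in the PTU mice against 26, 25, 34 and 19 after TH, or 0.84, 1.02, 0.10 and 0.26 CPM against 1.10, 0.86, 1.54 and 0.90 CPM. Mice 11 and 12 had few reads, and the other 6 libraries held 19 to 34. The log2 fold change was 0.94 (SE 0.54, edgeR adjusted p = 0.534), 0.62 without mouse 11 and 1.39 without mouse 10.

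The 3 transcription factors of the lineage are Olig1 and Olig2, basic helix-loop-helix factors that neighbour each other on chromosome 16, and Sox10, which maintains oligodendrocyte fate and acts on myelin genes. Olig1 (91269772 to 91271933, + strand) read 6.56, 4.55, 3.07 and 2.36 CPM in the PTU mice and 5.57, 2.61, 9.86 and 4.05 CPM in the TH-injected mice. Mouse 15 was highest and mice 12 and 14 lowest, so that low libraries were found in both groups (log2 fold change 0.40 with an SE of 0.40; edgeR adjusted p = 0.783). Without mouse 15 the value was -0.03, and without mouse 9 it was 0.72.

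Olig2 (91225457 to 91228677, + strand) read 4.04, 2.45, 2.23 and 0.96 CPM in the PTU mice and 2.23, 2.10, 3.63 and 2.28 CPM in the TH-injected mice. PTU held both the highest library, mouse 9, and the lowest, mouse 12, and the log2 fold change was 0.07 (SE 0.37, edgeR adjusted p = 0.976). Its sign turned without mouse 12 (-0.19) and without mouse 15 (-0.14), and it was 0.45 without mouse 9. Sox10 (chromosome 15, 79154908 to 79165240, - strand) read 4.37, 3.91, 2.08 and 0.92 CPM in the PTU mice and 5.14, 1.86, 7.40 and 3.52 CPM in the TH-injected mice. Mouse 12 was again lowest and mouse 15 highest, and the groups overlapped (log2 fold change 0.65 with an SE of 0.49; edgeR adjusted p = 0.675). Without mouse 15 the log2 fold change of Sox10 was 0.30, and without mouse 9 it was 0.94.

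**Figure D2:**
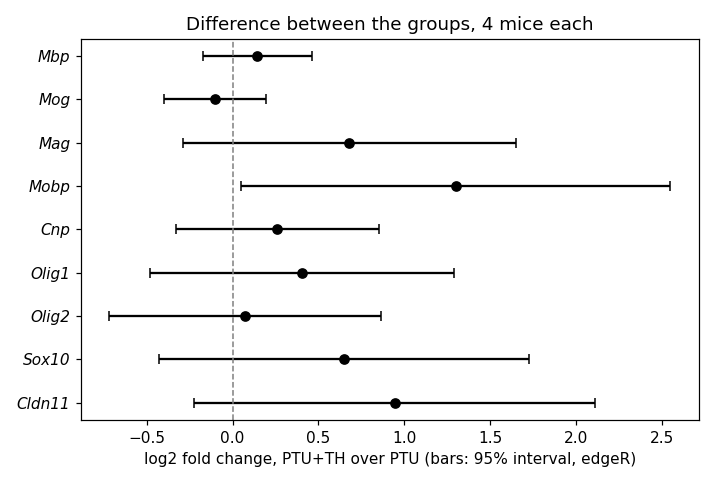
Log2 fold change of each of the 9 genes, PTU+TH over PTU (horizontal axis), with bars for the 95% interval of the edgeR fit (4 mice each). The unadjusted interval includes 0 for 8 genes and lies just above 0 for Mobp (0.05 to 2.55), whose adjusted p was 0.364; those of Mbp and Mog are the narrowest.

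Per length, the order of the levels was different from that in CPM. Which bases were counted is not stated, but the counts bear on it. All 881 protein-coding genes whose body lies wholly inside other genes, with at least 90% of their exon bases outside the exons of those genes, had 0 counts in all 8 libraries, as had the 562 of them that are covered from the other strand alone; of 11727 genes with a wholly free body 21.5% had 0 counts. This is the pattern of reads counted over whole gene bodies without regard to strand, with those in stretches shared by genes dropped. CPM was therefore divided by the length of body that no other gene covers. Olig1, a gene without introns, was highest (2.41 ± 1.24 CPM per free kb; SD, n = 8), followed by Cnp (1.55 ± 0.52), Mog (1.11 ± 0.12), Olig2 (0.77 ± 0.30) and Mbp (0.60 ± 0.11). Sox10 (0.35 ± 0.20), Mag (0.22 ± 0.12), Mobp (0.15 ± 0.13) and Cldn11 (0.06 ± 0.03 CPM per free kb) came below. Each gene overlapped the next in this order within their SD. Mbp, the most abundant member in CPM, came behind 4 others on this scale, and its free body of 110009 bases was the longest of the 9. Per kb of exon the order was another. Mog (8.05 ± 0.88) and Mbp (7.77 ± 1.47) came first there, followed by Cnp (3.37 ± 1.13) and Olig1 (2.23 ± 1.15 CPM per exon kb; SD, n = 8). The ranking thus depends on the length used.

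The members differed in how much they varied between mice, and 7 of them, in which the highest library exceeded the lowest by more than a factor of 2, are called variable below; this division was made after the values were seen. The factor was 1.41 for Mog and 1.82 for Mbp. Mbp was not flat, since its coefficient of variation of 18.9% was near the 17.7% median of all genes tested and reached 26.1% within PTU+TH, where mouse 15 was highest. For Cnp, Olig1, Olig2, Mag, Sox10 and Mobp the factor was 2.85, 4.17, 4.20, 5.62, 8.06 and 15.3, and the lowest library of Cldn11 held only 2 counts. Mice 11 and 12 were both among the 4 lowest libraries for 8 of the 9 members, the exception being Mog, for which mouse 11 was the highest. The mixture of the 9 genes was therefore not constant: Mbp made up 55.2% of the member counts in mouse 15 and 68.4% in mouse 12, while Mobp made up 7.54% in mouse 15 and 0.872% in mouse 11. How many of all tested genes had mice 11 and 12 low or mouse 15 highest was not counted.

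Over the 8 libraries, 36 pairs of members were correlated on log2 CPM. With exact permutation tests adjusted over the 36 pairs, 17 had an adjusted p under 0.05 by Pearson's r (0.77 to 0.96) and 9 by Spearman's rho, and these 17 ranged from 0.78 to 0.95 when the mean of each group was removed. The closest pairs were Cnp with Olig1 (r = 0.96, rho = 0.98, both exact permutation, adjusted p = 0.00312 and 0.00714) and Mobp with Cldn11 (r = 0.96, rho = 0.95, exact permutation, adjusted p = 0.00312 and 0.00821). Without the 2 libraries farthest from the median of the first gene, r was 0.91 and 0.98 in these pairs, and over the 17 pairs it ran from 0.45 to 0.98. The lowest was that of Mag with Olig2, which fell from 0.77 to 0.45, so that this relation rests on those libraries. Mog took part in 0 of the 17, with r between -0.36 and 0.34, and Mbp in 1, with Olig1 (r = 0.82, rho = 0.76, exact permutation, adjusted p = 0.0153 and 0.0778; r = 0.68 without the 2 farthest libraries). The libraries are the same in all pairs, so that a library poor in 1 gene counts in each of its pairs. How many pairs of other genes were correlated as closely was not counted.

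**Figure D3:**
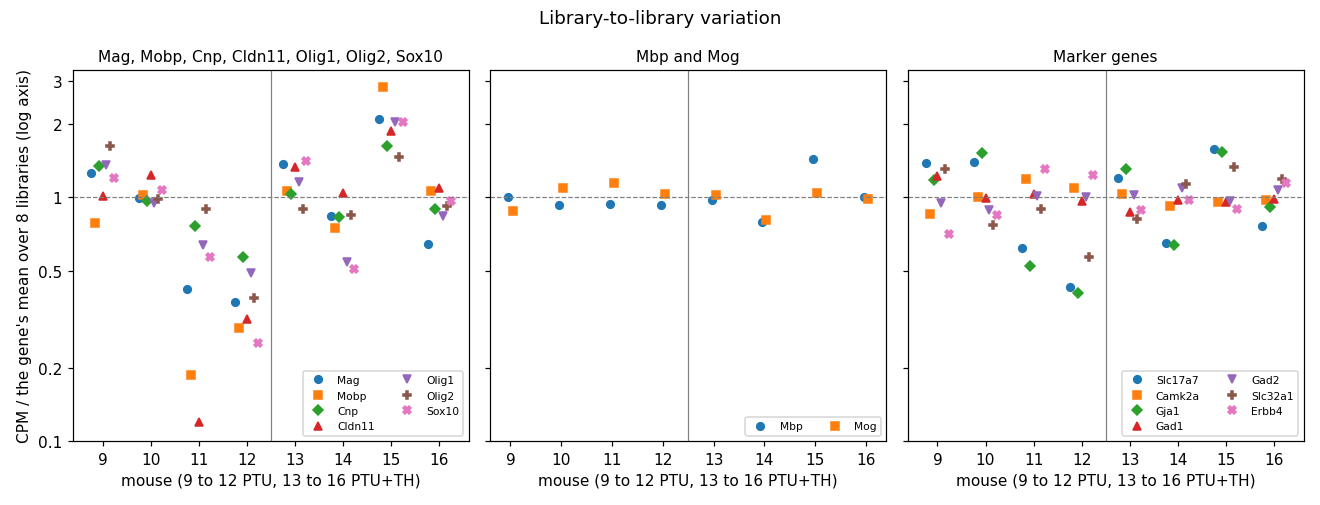
CPM of each gene divided by its own mean over the 8 libraries (vertical log axis) for each mouse (horizontal axis; the vertical line divides PTU from PTU+TH), in panels for 7 members, for Mbp and Mog, and for markers of excitatory neurons (Slc17a7, Camk2a), astrocytes (Gja1) and GABAergic neurons (Gad1, Gad2, Slc32a1, Erbb4). The 7 members lie below 1 in mice 11 and 12, Olig2 in mouse 11 only slightly, and above 1 in mouse 15, as do Slc17a7 and Gja1; Camk2a and Erbb4 are highest in mouse 11.

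Some markers of other cells, but not all, followed the order of the 7 variable members; Slc17a7 and Gja1 are given as examples that did, and were chosen after their values were seen. Slc17a7, the vesicular glutamate transporter of excitatory neurons, read 50.7, 51.4, 22.8 and 15.8 CPM in the PTU mice and 44.0, 23.9, 57.9 and 28.0 CPM in the TH-injected mice. Gja1, the connexin of astrocyte gap junctions, read 17.3, 22.4, 7.72 and 5.99 CPM in the PTU mice and 19.3, 9.42, 22.6 and 13.5 CPM in the TH-injected mice. Both genes were lowest in mice 11 and 12 and highest in mouse 15, as was Mag. Other markers had another order: Camk2a, a kinase gene of excitatory neurons, was highest in mice 11 and 12 (261 and 240 CPM), and the astrocyte gene Aldh1l1 (4.95 CPM) and the microglial gene Csf1r (8.66 CPM) were each second highest in mouse 11. Over the tested genes of each list, mouse 15 was the highest library for 6 of 8 astrocyte, 6 of 7 microglial, 4 of 8 excitatory and 1 of 7 endothelial markers. Mice 11 and 12 were both among the 4 lowest libraries for 6, 4, 4 and 6 of them in the same order. The GABAergic markers were not all even either: Slc32a1, the vesicular GABA transporter, was lowest in mouse 12 (9.01 CPM) and highest in mouse 15 (21.1 CPM), while Erbb4, a receptor gene of these neurons, was highest in mice 11 and 12 (5356 and 5043 CPM). Of the 7 GABAergic markers tested, 1 was highest in mouse 15 and 2 in mouse 11 or 12. The summed level of the 9 astrocyte markers was 146 to 269 CPM in PTU and 149 to 407 CPM in PTU+TH, and that of the 7 endothelial markers 34.4 to 165 and 36.2 to 116 CPM. The summed level of the 8 excitatory markers was 277 to 320 CPM in PTU and 247 to 331 CPM in PTU+TH, in which Camk2a was the main term at 188 to 261 CPM. The 8 microglial markers summed to 51.8 to 73.2 and 62.1 to 84.6 CPM. None of these lists had a called gene (0 of 8 astrocyte, 0 of 7 endothelial, 0 of 8 excitatory and 0 of 7 microglial genes tested, edgeR, against 2.12% of all genes). Their part in the levels of the 9 members was not tested. The markers Gfap and P2ry12 were listed at 0 in every library. Both lie wholly inside other genes, where no read could be counted if the counting was as inferred above.

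The genes outside the lists whose pattern was most like the mean standardised log2 CPM of the 9 members were S1pr1, Cst3, Acot11, Mpzl1 and Slc7a10. Their Pearson r over the 8 libraries was 0.98, 0.97, 0.97, 0.97 and 0.97, and Spearman's rho 0.90, 0.98, 0.90, 0.90 and 0.93, given as a description of the closest among 15140 genes of at least 1 CPM. All 5 were highest in mouse 15 and lowest in mouse 12. None passed the test between the groups, and the largest of their log2 fold changes was that of S1pr1, which encodes a receptor for sphingosine 1-phosphate (0.71, SE 0.49, edgeR adjusted p = 0.642).

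The remaining lineage genes were taken from 4 lists with 51 different symbols, of which 44 were tested, 33 with a fitted change above 0 and 11 below. Of these 44, 2 were called higher and 0 lower (edgeR, against 2.12% of all genes in either direction), and the median log2 fold change was 0.16. Both called genes were in the list of other myelin and oligodendrocyte genes (20 tested of 24, median 0.28). Ninj2, which encodes ninjurin 2, a membrane protein of the nerve injury response, was represented by 2, 1, 7 and 1 reads in the PTU mice against 18, 29, 72 and 29 after TH. It rose from 0.13 ± 0.15 to 1.60 ± 1.14 CPM with no overlap of the groups (SD over 4 mice a group; log2 fold change 3.71 with an SE of 0.70; edgeR adjusted p = 0.0140). That call was lost without mouse 15 (log2 fold change 3.10, adjusted p = 0.0573) and when only the 6 libraries with Y-linked counts were kept (2.85, adjusted p = 0.258). The fitted change stayed large and the groups still did not overlap in these fits, but it rests on few reads in PTU.

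Cntn2, an adhesion protein found both on axons beside the node and on oligodendrocytes, rose from 61.7 ± 3.42 to 87.0 ± 5.40 CPM, with all 4 PTU+TH mice above all 4 PTU mice (SD over 4 mice a group; log2 fold change 0.50 with an SE of 0.08; edgeR adjusted p = 0.00672). It was not called in the 6 libraries with Y-linked counts (log2 fold change 0.52, adjusted p = 0.0741), where the fitted change was of the same size. Its order was like that of the variable members in 1 respect, with mouse 15 the highest library (92.0 CPM), and unlike it in another, since mice 11 and 12 held 64.2 and 65.1 CPM, the highest of PTU. The most abundant uncalled genes of the list were Nfasc, which encodes neurofascin of the axon and the myelin loops, Sirt2, a deacetylase, and Tspan2, a tetraspanin, at 446, 67.1 and 50.4 CPM on average, and their log2 values for the difference, 0.08, 0.09 and -0.26, did not pass (edgeR adjusted p = 0.903, 0.687 and 0.352).

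Further genes of that list, outside the rule for named genes, were singled out after their values were seen. Of its 20 tested genes, the groups did not overlap for 5 that were higher after TH and 1 that was lower, against 8.71% of all genes in either direction. Gjc3, the gene of an oligodendrocyte connexin, stood at 0.49 ± 0.17 and 1.85 ± 0.92 CPM with no overlap of the groups, but an adjusted p of 0.0514 (edgeR). The 1 lower gene, Ndrg1, which is needed for peripheral myelin, stood at 8.26 ± 0.47 and 4.42 ± 1.79 CPM (edgeR adjusted p = 0.0940), and the remaining higher genes were Cntn2, Ninj2, Sirt2 and Cd9. Opalin, a marker of mature oligodendrocytes, was too low to be tested, at 0 to 0.82 CPM, and the sheath genes Mal and Ermn averaged 0.70 and 0.45 CPM. Gjc3, Opalin, Mal and Ermn were thus detected at low levels, and Opalin had no count in mouse 16.

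In the list of myelin lipid synthesis 7 of 7 genes were tested, 5 with a fitted change above 0 and 2 below, and 0 were called (median log2 fold change 0.11, edgeR). Cers2, which makes the very long chain ceramides of myelin lipids, averaged 79.4 CPM (log2 fold change -0.26), Degs1, a desaturase of the same route, 34.5 CPM (0.11), and Elovl7, a fatty acid elongase, 16.0 CPM (0.36). Ugt8a, the galactosyltransferase that commits ceramide to myelin galactolipids, was far lower, with 1.43 ± 0.72 CPM in the PTU mice against 3.21 ± 1.38 CPM after TH (SD over 4 mice a group; edgeR adjusted p = 0.240).

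Of the regulators of the lineage 11 of 13 were tested and 0 were called (median log2 fold change 0.17, edgeR). The 3 most abundant, Zfp536, Id2 and Id4, are also expressed in other neural cells, and averaged 395, 40.8 and 22.6 CPM with log2 fold changes of 0.17, -0.09 and 0.09. Myrf, the factor that switches on myelin genes in maturing oligodendrocytes, averaged 1.99 CPM (log2 fold change 0.30 with an SE of 0.28; edgeR adjusted p = 0.748). Of the precursor markers 6 of 8 were tested and 0 were called (median 0.06, edgeR). The 3 most abundant, Sox6, Lhfpl3 and Vcan, averaged 568, 155 and 41.0 CPM, and Sox6 is also a factor of GABAergic neurons. Pdgfra, the growth factor receptor that defines the precursors, read 6.48, 5.61, 4.90 and 2.19 CPM in the PTU mice and 4.30, 2.27, 7.77 and 2.85 CPM in the TH-injected mice, so both the highest and the second lowest library were in PTU+TH (log2 fold change -0.17, edgeR adjusted p = 0.935). Gpr17 and C1ql1 were listed at 0 in every library, and both lie wholly inside other genes.

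**Figure D4:**
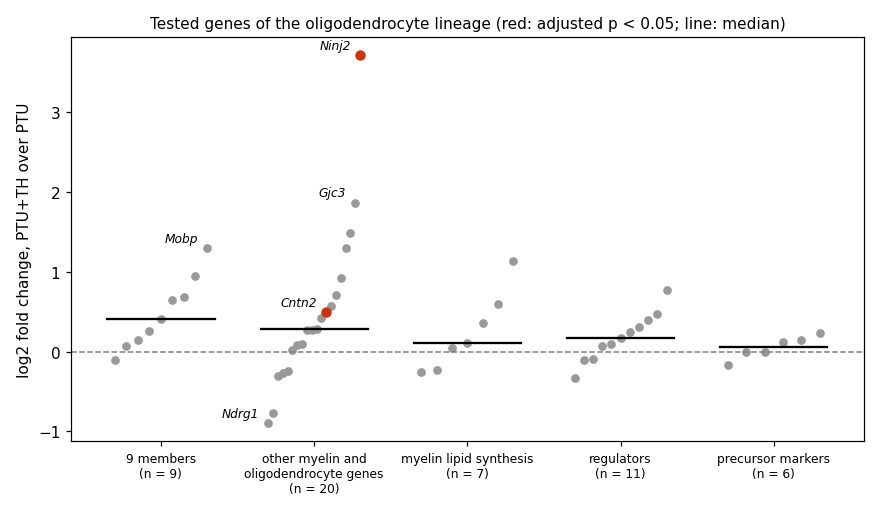
Log2 fold change, PTU+TH over PTU (vertical axis), of every tested gene in the 9 members and the 4 lists of other lineage genes (horizontal axis, with the number tested); red points passed an adjusted p of 0.05 in the edgeR test and lines are medians. Ninj2 (3.71) and Cntn2 (0.50) are the only called genes, and the medians run from 0.06 for precursor markers to 0.40 for the 9 members.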

How the data were processed

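RNA was measured in nuclei of 8 mice, with 1 library per mouse. Raw counts per gene symbol were deposited; per the labels' protocols the authors made cDNA with SMART-Seq v4, libraries with Nextera XT and single-end reads. The submitters' processing notes name Bowtie2 2.5.3 and mouse build GRCm38 (mm10). The counting program, annotation, strand and intron handling are not given in the sources used here. Genes wholly inside others were all at 0 counts. From this it was inferred that gene bodies were counted without strand and shared stretches dropped. All 55341 symbols were found in GENCODE M21, from which positions and lengths were taken. No row lacked a gene name.

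Groups came from the titles. Counts were tested with edgeR 4.0.16 (R 4.3.3): filterByExpr, TMM, robust quasi-likelihood fit on group alone, two-sided, Benjamini-Hochberg over 17355 genes. The members and lists were chosen with earlier results of these data known. Named genes were the 9 members, called genes of the other lineage lists, the 3 most abundant uncalled genes of each, the 5 most alike in pattern, and marker and TH-responsive genes; Ugt8a, Myrf, Pdgfra, the markers beyond Gad1, Gad2, Slc17a7, Slc1a2, Cldn5 and Csf1r, and the other genes named outside this rule were chosen after their values were seen. Pairs of libraries within a group differed beyond sampling noise (chi-square per degree of freedom 8.38 to 72.6, 12 pairs). The script was tested on simulated data. Alternatives used RLE or no scaling, no filter, DESeq2 1.42.0, limma 3.58.1 voom with quality weights, the 6 libraries with Y-linked counts, and each library left out. Values of 1 listed lineage gene are not reported here, though counts over its list include it.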

Additional observations from a re-analysis of the deposited data

Results flagged for a closer look

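For the 9 members and 14 further named lineage genes, each group of 4 libraries was searched for a library that stood apart. This held in 4 of 46 searches. Chance gives about 1 in 20 for independent sets of normally distributed values. The genes searched share the same libraries, so the 4 cannot be set against that rate. In mouse 15 (PTU+TH), Mobp reached 12.9 CPM while the rest of the group lay between 3.40 and 4.81, and the gap was 0.852 of the whole range. In that library Olig2 reached 3.63 CPM with the rest between 2.10 and 2.28 (0.878). In mouse 9 (PTU), Mbp reached 66.1 CPM with the rest between 61.0 and 61.7 (0.862). In mouse 11 (PTU), Ninj2 reached 0.346 CPM with the rest between 0.0376 and 0.0729 (0.886), from 7 reads against 1 to 2.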

How the results depend on the processing

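No paired analysis was possible because PTU and PTU+TH share no mouse number. None of the 9 members was called under any of the 14 alternatives run. In 126 member fits, the sign turned in 7, all of Mbp, Olig1 and Olig2. In the 6 libraries with Y-linked counts their log2 fold changes were -0.106, -0.0277 and -0.166, and across the fits that left out 1 library they ranged from -0.0439 to 0.262, from -0.0321 to 0.723 and from -0.189 to 0.447. The other lineage genes called numbered 2, both higher after TH, against 4 without the filter (3 higher), 5 with DESeq2 (4 higher) and 0 in the 6 libraries. When a library was left out they numbered 1 (without mouse 15) to 5 (without mouse 14, 4 higher). All genes called numbered 368, against 722 with DESeq2, 58 in the 6 libraries, and 182 (without mouse 15) to 499 (without mouse 9) when a library was left out; the count was 233, 238, 227 and 209 without mice 12, 13, 14 and 16. The 6 libraries hold PTU mice 9 to 12 against PTU+TH mice 13 and 14 alone. They and the fits that left out a library hold fewer mice than the main fit. The cause of the differences in these counts was not tested. Scaling moved the median of all genes from -0.01 to -0.03 at most. Cldn11 and Ninj2 rest on as few as 2 and 1 counts in a library.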
